A study of Mus musculus with 6 samples.

Results

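The 9 genes followed were those of gamma-delta and type 17 T cells, measured in nuclei of mouse white adipose tissue: the gamma-delta receptor constant genes Trgc1 and Trdc, the scavenger receptor genes Scart1 and Scart2, the cytokine receptor genes Il23r, Il1r1 and Il18r1, the kinase gene Blk and the cytokine gene Il17a. They were found by symbol among the 56980 genes listed for every library, where each of the 9 symbols matched 1 row. The genes had been chosen by their UMI levels, as leading genes of a T cell cluster in these same libraries, so their high level in that cluster is a description and was not tested.

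Gamma-delta T cells carry an antigen receptor built from a gamma and a delta chain in place of the alpha and beta chains of most T cells. Many of them settle in barrier tissues and fat early in life. A type 17 program lets such cells answer IL-23, IL-1 and IL-18 through surface receptors and release IL-17. In adipose tissue, resident IL-17-producing gamma-delta cells are known for a part in heat production and in the upkeep of regulatory T cells.

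The data were single-nucleus RNA sequencing (snRNA-seq) counts of unique molecular identifiers (UMIs) from 6 libraries of female C57BL/6J mice, with no genetic change or treatment in any group. Subcutaneous fat (SAT, the inguinal pad) was sampled at 2 and 24 months and visceral fat (VAT, the gonadal pad) at 24 months, each of these 3 groups with 2 libraries. The age of 24 months is that of the labels, whereas the design text gives a greater age. Young VAT was not used here. The study collected both depots from 2 mice per age, but no label ties a library to a mouse, so the p-values measure the spread between these libraries.

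The deposited totals ran from 8061862 to 16226690 UMIs a library over 50859 barcodes, and 27074 nuclei were kept, with a median of 1380 to 1878 UMIs a nucleus by library. No library shared more than 0.769% of its barcodes with another. The labels name the cell type adipocytes, whereas 6377 kept nuclei fell in adipocyte-like clusters and 10484 in immune clusters, 4792 of them T cell-like. VAT replicate 1 stood apart with 9 T cell nuclei, so values for T cells of VAT rest on replicate 2. The median mitochondrial share of kept nuclei was 1.72% and 0.918% in SAT at 2 months, 3.49% and 2.91% in SAT at 24 months and 0.776% and 5.07% in VAT. It thus separated the ages in SAT as the age contrasts do, and its part in them was not tested.

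Trgc1 encodes a constant region of the gamma chain on chromosome 13, from 19398273 to 19401194 on the plus strand (GRCm39), beside 3 close copies. The first 60 coding bases of each are printed because reads of a short constant exon can be hard to place between copies. Capitals mark the bases that differ from Trgc1, at 1 position in Trgc2, 2 in Trgc3 and 10 in Trgc4.
Trgc1: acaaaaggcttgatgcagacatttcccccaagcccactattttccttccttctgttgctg
Trgc2: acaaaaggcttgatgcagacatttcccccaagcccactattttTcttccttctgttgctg
Trgc3: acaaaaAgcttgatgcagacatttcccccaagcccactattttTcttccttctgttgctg
Trgc4: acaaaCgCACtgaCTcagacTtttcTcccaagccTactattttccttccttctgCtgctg
These stretches lie at chr13:19398273-19398332 (plus strand), chr13:19491662-19491721 (minus strand), chr13:19445055-19445114 (plus strand) and chr13:19528728-19528787 (plus strand). Over their coding sequence, Trgc1 matched Trgc2 at 487 of 500 aligned bases (97.4%), Trgc3 at 429 of 443 (96.8%) and Trgc4 at 413 of 512 (80.7%). Counts of Trgc1 are therefore uncertain with respect to Trgc2 and Trgc3.

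The other members lie at these places in GRCm39. Scart1 and Scart2 are neighbours on the plus strand of chromosome 7, from 139798180 to 139811058 and from 139827197 to 139880649. Il1r1 and Il18r1 are both on the plus strand of chromosome 1, from 40264174 to 40356417 and from 40504712 to 40540014, and Il17a is on the same chromosome from 20801129 to 20804720. Il23r runs from 67391313 to 67468888 on the minus strand of chromosome 6. Trdc lies on the plus strand of chromosome 14 from 54380308 to 54386325, with Trdv5 and Gm43434 on the opposite strand inside that span. Blk lies on the minus strand of the same chromosome from 63610285 to 63654587, also with a gene on the opposite strand. The strand setting of the counting is not given in the sources used here, so reads of Trdc and Blk cannot be told apart from reads of those partners. Il23r and Il1r1 overlap predicted genes on their own strand.

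Promoter sequences from RefSeq (GRCm38.p6, 250 bases before to 50 after the start) matched 6 of the 9 members, Scart1 as Cd163l1 and Scart2 as 5830411N06Rik. They are shown for Il23r, Scart2 and Scart1 because these 3 genes were high in the same T cell sub-cluster. Capitals mark AGGTCA or its other strand TGACCT, a core shared by the binding elements of many nuclear receptors.
Il23r: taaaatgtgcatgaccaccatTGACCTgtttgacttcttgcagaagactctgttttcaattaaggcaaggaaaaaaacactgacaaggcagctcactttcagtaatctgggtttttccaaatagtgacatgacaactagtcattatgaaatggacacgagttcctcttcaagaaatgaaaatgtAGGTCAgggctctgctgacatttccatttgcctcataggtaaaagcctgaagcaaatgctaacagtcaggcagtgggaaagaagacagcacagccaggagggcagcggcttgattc
Scart2: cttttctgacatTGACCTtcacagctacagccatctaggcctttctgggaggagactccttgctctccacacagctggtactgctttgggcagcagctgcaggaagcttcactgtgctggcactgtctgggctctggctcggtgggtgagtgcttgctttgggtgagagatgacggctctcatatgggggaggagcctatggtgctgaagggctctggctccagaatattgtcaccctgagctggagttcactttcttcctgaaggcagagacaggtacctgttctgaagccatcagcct
Scart1: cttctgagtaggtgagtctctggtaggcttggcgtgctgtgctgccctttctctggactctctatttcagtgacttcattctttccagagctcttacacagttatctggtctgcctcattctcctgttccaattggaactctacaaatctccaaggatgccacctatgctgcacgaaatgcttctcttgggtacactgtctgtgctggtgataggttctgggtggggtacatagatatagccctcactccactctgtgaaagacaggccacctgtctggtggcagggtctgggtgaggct
The windows are chr6:67491806-67492105 (minus strand), chr7:140247051-140247350 (plus strand) and chr7:140218017-140218316 (plus strand). Il23r held 2 matches, Scart2 held 1 and Scart1 held 0. Among all 32851 promoter windows, 5340 (16.3%) held the motif, as did 5 of the 11 windows of the 6 matched members, some of which overlap. A match is a run of letters only, and nothing about binding was measured.

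Clustering of the 4792 T cell nuclei without the members among the variable genes gave 10 sub-clusters. All members but Il18r1 and Il17a were highest in sub-cluster 0, of 894 nuclei, which made up 18.7% of T cell nuclei and 3.30% of kept nuclei. Il18r1 was higher in sub-cluster 9, and Il17a had no UMI in T cell nuclei. Of 15 marker genes listed for type 17 gamma-delta T cells, 14 were among the genes of the libraries. Of these, 12 were more than 2-fold above the other T cell nuclei in sub-cluster 0, which is called type 17 gamma-delta T-like. Sox13, a factor of type 17 gamma-delta cells, was at 176 CPM (UMIs per 1000000 UMIs of the nuclei summed) in it. Trac, the alpha chain constant gene, was at 134 CPM against 580, 623 and 763 CPM in sub-clusters 1, 3 and 6. Cd4 was at 13.8 CPM and Cd8a at 31.8 CPM, so neither co-receptor marked these nuclei, while the CD3 gene Cd3e was at 302 CPM.

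Both receptor constant genes marked sub-cluster 0. Trgc1 was at 571 CPM (95% exact Poisson interval 532 to 611) there and at 0 to 25.9 CPM in the other 9 sub-clusters. Trdc, the only delta constant gene, was at 349 CPM (319 to 380) and at 0 to 46.9 CPM elsewhere among T cells. Intervals of this kind cover counting error only. Outside T cells, natural killer-like (NK) nuclei had the highest levels of both, 29.6 CPM of Trgc1 and 59.2 CPM of Trdc.

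Scart1 and Scart2 encode scavenger receptor cysteine-rich proteins known from the surface of IL-17-producing gamma-delta cells. Scart1 was at 1727 CPM (1660 to 1796) in sub-cluster 0 and at 5.08 to 130 CPM in the others. Scart2 was at 1117 CPM (1063 to 1173) in sub-cluster 0. It was also at 885 CPM in the unnamed sub-cluster 9, of 40 nuclei, and at 227 CPM in the unnamed sub-cluster 6, of 401 nuclei, against 8.46 to 37.2 CPM in the rest. In sub-cluster 9, 44 of the 59 UMIs of Scart2 came from the 11 nuclei of SAT 2 months replicate 1, and without that library its level was 365 CPM.

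The 3 cytokine receptor genes had different reach. Il23r, the specific chain of the IL-23 receptor, was at 1268 CPM (1211 to 1327) in sub-cluster 0, 675 CPM in sub-cluster 9, 98.9 CPM in sub-cluster 6 and 7.07 to 89.8 CPM in the rest. Il18r1, the ligand-binding chain of the IL-18 receptor, was at 2695 CPM (2611 to 2781) in sub-cluster 0, at 3195 CPM in sub-cluster 9, at 1321 CPM in sub-cluster 6 and at 202 to 479 CPM in the rest. All 45 UMIs of Il23r in sub-cluster 9 came from the SAT libraries at 2 months, 29 and 16, and without replicate 1 of these its level was 389.7 CPM. NK-like nuclei held 1277 CPM of Il18r1, a cell type known to respond to IL-18. Il1r1, the signalling receptor for IL-1, was at 594 CPM (555 to 635) in sub-cluster 0, at 240 CPM in sub-cluster 9 and at 5.08 to 32.4 CPM in the rest.

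Il1r1 was also found well outside T cells, since T cell nuclei held 20.2% of its kept UMIs. The fibro-adipogenic progenitors (FAPs) were at 233 CPM, endothelial nuclei at 81.4 CPM and adipocyte nuclei at 72.5 CPM. Blk, a Src family kinase of B cells and gamma-delta thymocytes, was at 819 CPM (773 to 867) in sub-cluster 0, at 21.1 to 75.0 CPM in the other T cell sub-clusters and at 367 CPM in B cell nuclei. T cell nuclei held 45.0% of the kept UMIs of Blk. For Scart1, Scart2, Il23r, Trgc1 and Trdc that share was 77.3% to 89.3%, and for Il18r1 it was 65.3%.

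**Figure D1:**
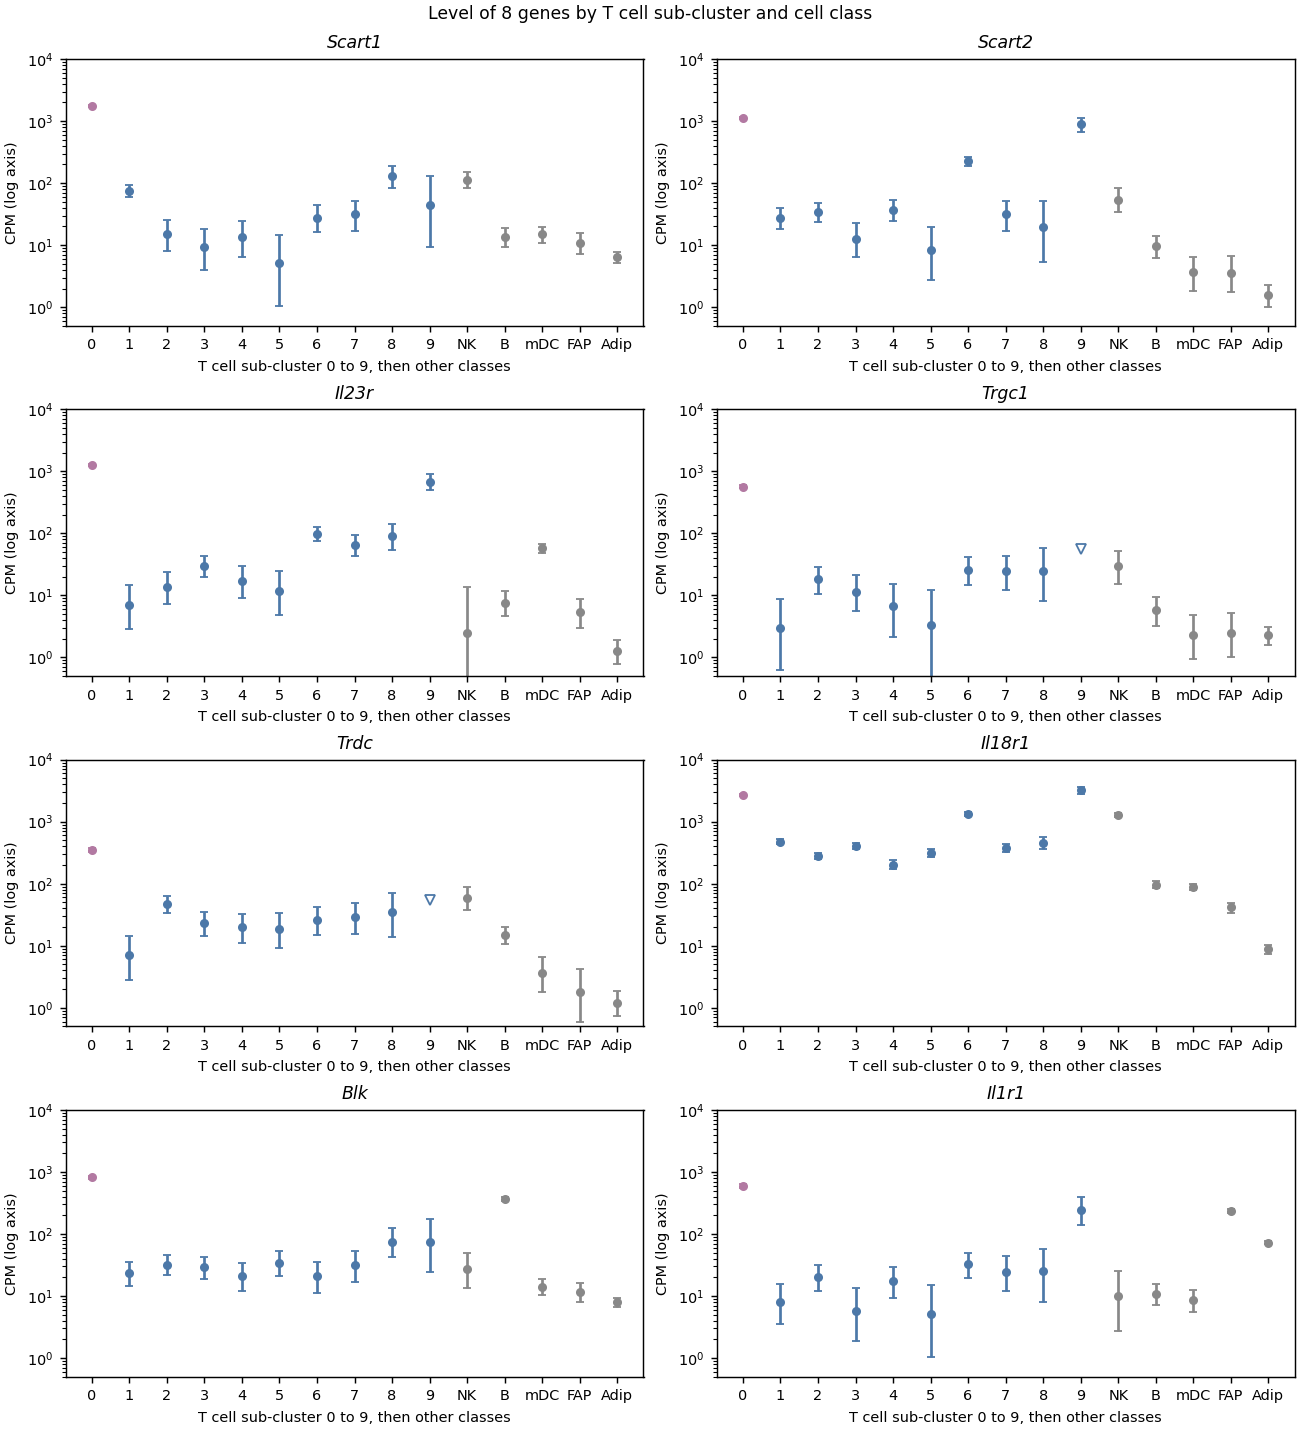
Level of 8 members (CPM, log axis) in T cell sub-clusters 0 to 9 and in NK, B, mature dendritic, FAP and adipocyte nuclei, summed over libraries. Points are CPM with 95% exact Poisson intervals, and open triangles mark 0 UMIs, drawn at the upper bound. Sub-cluster 0 has the highest point for 7 members, while Il18r1 is higher in sub-cluster 9 (3195 CPM against 2695 CPM).

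Il17a, the signature cytokine, was hardly captured. It had 4 UMIs over all 50859 barcodes and 1 in kept nuclei, and that nucleus was in no named class. No T cell nucleus held a UMI of it, 0 of 4792, which allows a share of up to 0.0626%, and in sub-cluster 0 it was 0 of 894, which allows up to 0.336%. These limits are for nuclei with a captured UMI, at a median of 1309 UMIs a T cell nucleus, and not for nuclei that express Il17a. Il17f and Il22, related cytokines, were also at 0 UMIs in sub-cluster 0, with 7 and 2 UMIs in all T cell nuclei. The type 17 call therefore rests on receptors and transcription factors, not on cytokine transcripts.

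At 2 times the clustering resolution, sub-cluster 0 fell into 3 parts that held 891 of its 894 nuclei, plus a few nuclei from elsewhere. They are named here by their leading gene. The Il17rb-led part (336 nuclei, with Il17rb encoding the IL-25 receptor chain) had 365 CPM of Scart1, 458 CPM of Scart2 and 73.4 CPM of Trdc. By library, VAT replicate 1 with its 1 nucleus left out, its Scart1 level ran from 117 to 1102 CPM. The highest value was that of SAT 2 months replicate 1, with 95 of the 209 UMIs. Its Scart2 level ran from 181 to 963 CPM. The Scart2-led part (304 nuclei) had 1670 CPM of Scart1, 2579 CPM of Scart2 and 583 CPM of Trdc. The Rnf150-led part (263 nuclei) had 3692 CPM of Scart1, 266 CPM of Scart2 and 453 CPM of Trdc. Summed over libraries, the 2 Scart genes thus peaked in different parts, and Scart2 was highest in the Scart2-led part in each of the 4 SAT libraries. In VAT replicate 2 both were highest in the Rnf150-led part, Scart1 at 117, 732 and 1020 CPM and Scart2 at 181, 249.9 and 268 CPM in the order above, and in SAT 2 months replicate 2 Scart1 was at 1259 CPM in the Scart2-led and 1281 CPM in the Rnf150-led part.

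Summed over libraries, Il23r was at 1310, 1245 and 1215 CPM in the same order. Il18r1 was at 2934, 2695 and 2284 CPM. Trgc1 was at 451, 656 and 631 CPM. Single libraries were less even: in SAT 2 months replicate 2, Il23r was at 1354, 1332 and 418 CPM and Il18r1 at 2855, 2235 and 1281 CPM. Trgc1 was at 361, 520 and 173 CPM there and at 616, 571 and 284 CPM in VAT replicate 2. In SAT 24 months replicate 1, Il23r was highest in the Rnf150-led part, at 1428, 1429 and 1847 CPM.

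Summed over libraries, Blk was lowest in the Il17rb-led part, at 440, 1033 and 1084 CPM. In SAT 2 months replicate 2 it was lowest in the Rnf150-led part, at 706, 803 and 533 CPM. Over all libraries, Il1r1 was at 566, 446 and 799 CPM. The Rnf150-led part had the least Il1r1 in SAT 2 months replicate 2 (345, 429 and 274 CPM) and in VAT replicate 2 (882, 678 and 652 CPM). Sox13 was at 19.2, 318 and 225 CPM in the sums, and Cd247, a CD3 chain of the receptor complex, at 281, 984 and 1037 CPM. Lck, the receptor-proximal kinase, went the other way with 573, 108 and 291 CPM. The Il17rb-led part thus held little Trdc and Sox13 while its Trac level was 152 CPM, against 87.2 and 183 CPM in the other parts, so the name gamma-delta is least well covered by its markers there. These are parts of 1 clustering and no test was made between them.

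**Figure D2:**
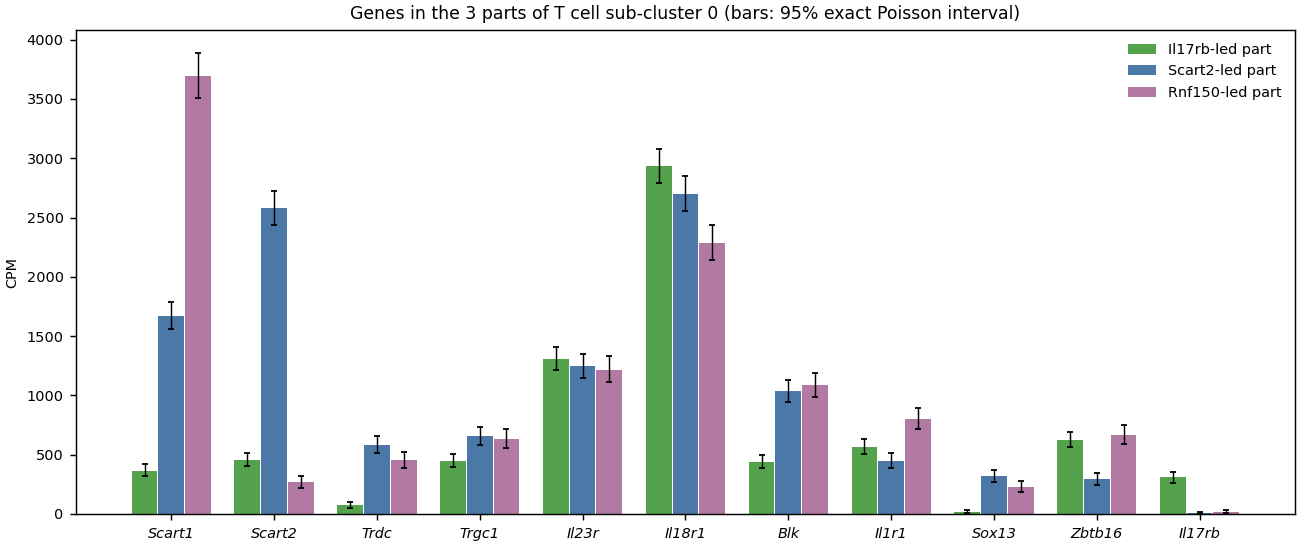
Level (CPM, linear axis from 0) of 11 genes in the 3 parts of sub-cluster 0, summed over libraries, with 95% exact Poisson intervals. Scart2 is highest in the Scart2-led part (2579 CPM), Scart1 in the Rnf150-led part (3692 CPM) and Il17rb in the Il17rb-led part (307 CPM), while Il23r is at 1215 to 1310 CPM in these sums and differs more within single libraries.

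Every library with more than 6 such nuclei held all 3 parts, at 27.2% to 42.2% each. Single nuclei were compared after each was thinned to 1000 UMIs. In sub-cluster 0, 39 of 248 nuclei with a UMI of Scart1 (15.7%) also had Scart2, against 211 of 646 nuclei without Scart1 (32.7%). By library the shares were 20.9% against 54.7% and 25.0% against 34.5% in SAT at 2 months, and 15.1% against 37.9% and 8.62% against 31.8% in SAT at 24 months. VAT replicate 2 had them in the opposite order, 17.6% against 10.5%, with 17 nuclei in the first. In each of the 4 SAT libraries the share with Scart2 was lower among nuclei with Scart1, with overlapping exact intervals in 1 of them (11.5% to 43.4% against 26.7% to 42.9% in SAT 2 months replicate 2), and no test was made.

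Trdc went with Scart1: it was found in 44.0% of nuclei with Scart1 and in 11.8% of those without. Blk was found in 69.0% against 29.4%, and Trgc1 in 53.6% against 25.1%. Il18r1 was found in similar shares (82.7% against 84.5%). In VAT replicate 2, 9 of 17 nuclei with Scart1 had Trdc, whereas 0 of 143 without Scart1 did (exact upper bound 2.55%), although 48 of those 143 had Trgc1. All of these shares depend on capture at 1000 UMIs, so a nucleus without a UMI need not lack the transcript.

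Within sub-cluster 0 the members could be followed by library, in the order SAT 2 months replicates 1 and 2, SAT 24 months replicates 1 and 2 and VAT replicate 2. Scart2 was at 2215, 1469, 963, 553 and 225 CPM, so both 2-month libraries lay above both 24-month SAT libraries, and VAT was lowest. Il1r1 was at 340, 364, 653, 928 and 766 CPM, with both 2-month libraries below all 24-month libraries. These are the members whose SAT ages did not overlap and that passed the test given further on.

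Il23r, at 974, 1146, 1542, 1475 and 948 CPM, also had its 2-month libraries below those of SAT at 24 months. Scart1 was at 2167, 950, 2163, 2473 and 541 CPM. The ages overlapped for it, with 1 of the 2-month libraries level with the older ones.

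Trgc1 was at 752, 381, 531, 819 and 512 CPM, and Trdc at 493, 253, 423, 380 and 95.7 CPM. Blk was at 1099, 711, 949, 917 and 249 CPM. All 3 overlapped between ages in SAT. Il18r1, at 2745, 2299, 2596, 2907 and 3265 CPM, had the smallest ratio of highest to lowest. Trdc and Blk were lowest in VAT, while Trgc1 was not. VAT replicate 1 had 6 nuclei here, with 0 UMIs of Scart2 and 3425 CPM of Scart1.

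**Figure D3:**
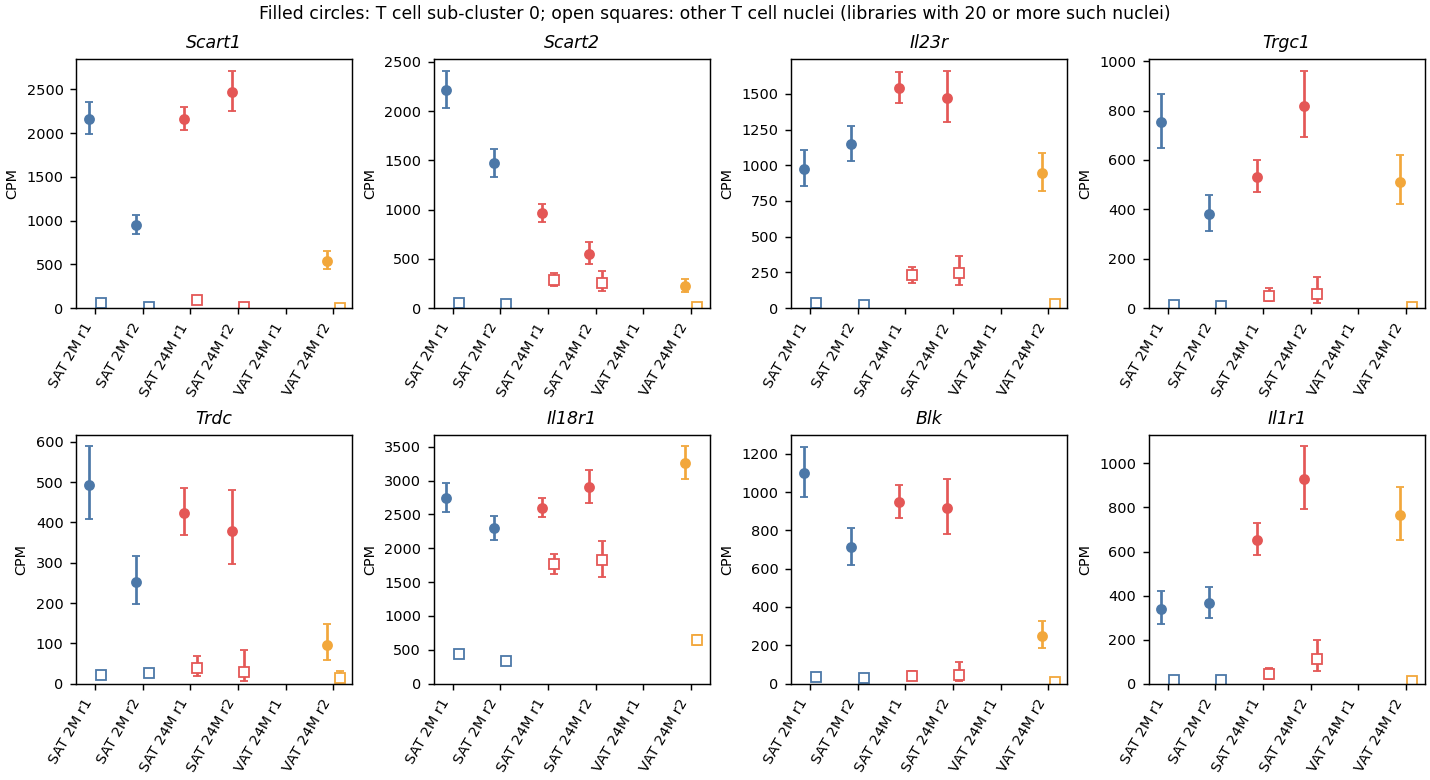
Level of each member (CPM) by library in sub-cluster 0 (filled circles) and in all other T cell nuclei (open squares), with libraries of fewer than 20 nuclei left out. In sub-cluster 0 both SAT libraries at 24 months lie below both at 2 months for Scart2 (963 and 553 against 2215 and 1469 CPM) and above them for Il1r1 (653 and 928 against 340 and 364 CPM).

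The share of T cell nuclei in sub-cluster 0 separated the ages of SAT. It was 9.72% and 7.63% in SAT at 2 months, 60.9% and 61.7% in SAT at 24 months, and 33.4% in VAT replicate 2, with 6 of 9 nuclei in VAT replicate 1. The mean was 61.3% ± 0.575 (SD, n = 2) at 24 months against 8.67% ± 1.48 (SD, n = 2) at 2 months, a difference of 52.7 percentage points. The exact two-sided permutation p was 0.333, the smallest that 2 against 2 libraries can give.

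A share set by the members themselves within the T cell class, and so not independent of the sub-cluster they were chosen to mark, was also apart between the ages. T cell nuclei with UMIs of at least 2 members, after thinning, were 12.4% and 8.50% of T cell nuclei in SAT at 2 months, 65.3% and 67.4% in SAT at 24 months and 29.4% in VAT replicate 2. Without thinning they were 14.8% and 9.77%, 70.3% and 69.9%, and 31.9%. The thinned difference in SAT was 55.9 percentage points (66.3% ± 1.43 against 10.5% ± 2.78, SD, n = 2 each, exact permutation p = 0.333). Adipocyte nuclei, which should lack these T cell genes apart from Il1r1, gave 0.345%, and B cell nuclei 3.07%, at a median of 2118 and 1312 UMIs against 1309 UMIs in T cell nuclei.

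The denominator moved as well as the numerator. Sub-cluster 0 was 2.81% and 3.01% of all kept nuclei in SAT at 2 months, 12.2% and 2.57% in SAT at 24 months and 0.135% and 3.16% in VAT, so the SAT ages overlapped on that scale (exact permutation p = 1.0). Other T cell nuclei were 26.1% and 36.5% of kept nuclei at 2 months against 7.83% and 1.59% in SAT at 24 months. Of immune nuclei, sub-cluster 0 was 4.69% and 3.98% against 29.5% and 14.6% (exact permutation p = 0.333), and 1.91% and 13.4% in VAT. The high share among T cells at 24 months thus came with a low share of other T cell nuclei in both SAT libraries, and with a high share of sub-cluster 0 itself in replicate 1.

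**Figure D4:**
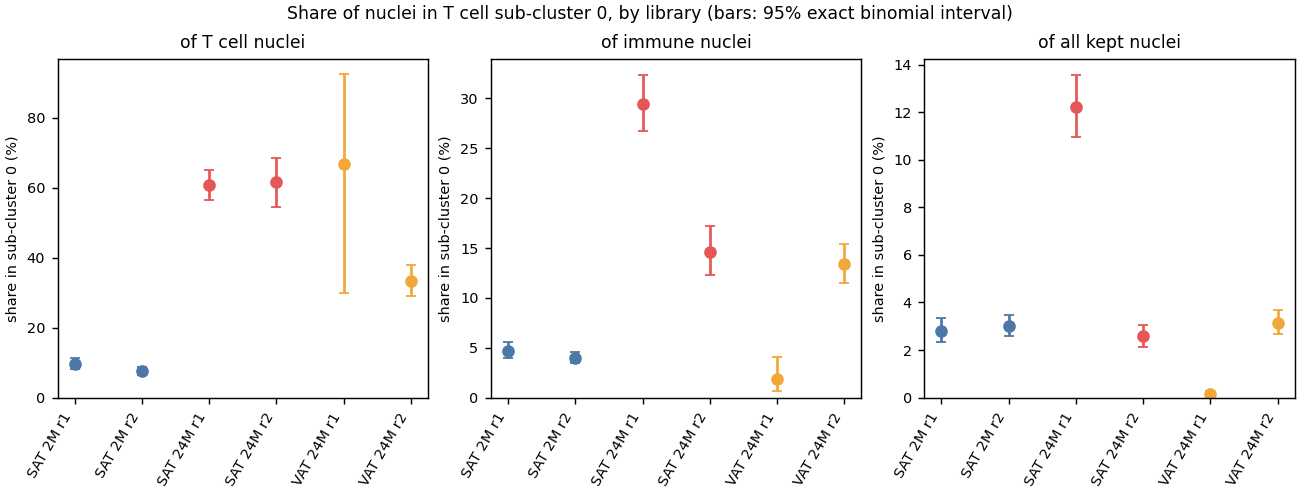
Nuclei of sub-cluster 0 as a percent of T cell nuclei, of immune nuclei and of all kept nuclei, 1 point per library. The SAT ages are far apart among T cells (9.72% and 7.63% against 60.9% and 61.7%) and overlap among all kept nuclei (2.81% and 3.01% against 12.2% and 2.57%).

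Markers of lymph node moved in the same direction as the other T cells. A list of 11 genes of lymph node vessels and stroma summed to 978 and 891 CPM over all nuclei in SAT at 2 months, 525 and 429 CPM in SAT at 24 months and 249 and 534 CPM in VAT. All 11 were detected in each SAT library. Glycam1, a mucin of lymph node venules, had 1096 and 392 UMIs at 2 months, 3 and 7 in SAT at 24 months and 0 and 16 in VAT. Within T cell nuclei a list of naive T cell genes summed to 3254 and 4086 CPM at 2 months against 694 and 725 CPM in SAT at 24 months. The inguinal depot holds a lymph node, and the part of these markers in the age differences was not tested.

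In T cell nuclei summed by library, all 8 members that passed the low-count filter rose in SAT from 2 to 24 months. The members were chosen as leading genes of a T cell cluster, and the share of sub-cluster 0, where they are high, was greater at 24 months. Their rises in this sum are therefore not independent of that share or of each other. Il17a, without UMIs there, was not tested. In the edgeR fit 15.5% of all 12247 genes tested were called at an adjusted p under 0.05, with a median log2 fold change of -0.03 over all genes, against 2.49 over the 8 members. Il1r1 was at 52.7 and 49.4 CPM at 2 months against 429 and 632 CPM at 24 months, a log2 fold change of 3.39 ± 0.22 (SE, adjusted p = 4.93e-15). Il23r was at 146 and 126 against 1061 and 1029 CPM (2.99 ± 0.20). Scart1 was at 303 and 105 against 1404 and 1577 CPM (2.92 ± 0.27). The ages did not overlap for any of these 3 receptor genes.

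Trgc1 was at 102 and 42.6 CPM against 354 and 542 CPM, a log2 fold change of 2.67 ± 0.26. Trdc was at 77.7 and 47.4 against 282 and 252 CPM (2.18 ± 0.22). Blk was at 159 and 94.2 against 615 and 601 CPM (2.32 ± 0.22). The ages were again apart for both receptor chains and the kinase.

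Il18r1 was at 716 and 518 CPM against 2291 and 2516 CPM, a log2 fold change of 2.00 ± 0.20. Scart2 rose least, from 307 and 175 to 715 and 445 CPM, by 1.35 ± 0.23 (adjusted p = 1.79e-05). VAT replicate 2 lay between the SAT ages for Il1r1 (265 CPM), Il23r (338 CPM), Trgc1 (176 CPM) and Il18r1 (1527 CPM), within the 2-month libraries for Scart1 (183 CPM), and below both ages for Scart2 (82.4 CPM), Trdc (42.0 CPM) and Blk (88.9 CPM). As VAT had 1 library with enough T cell nuclei, no depot test was made in T cells. In a sum over nuclei, more cells of a type and more RNA per cell cannot be told apart.

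Within sub-cluster 0 alone, 2 members changed with age. Scart2 fell by 1.22 ± 0.24 on the log2 scale (adjusted p = 0.000213, edgeR) and Il1r1 rose by 1.18 ± 0.26 (adjusted p = 0.000853). Of 7437 genes tested, 1.69% were called. The remaining members were at 0.61 ± 0.24 for Scart1 (adjusted p = 0.249), 0.54 for Il23r (adjusted p = 0.358) and 0.08 to 0.27 for Trgc1, Trdc, Il18r1 and Blk. Both calls were lost with DESeq2 (adjusted p = 0.896 for Scart2 and 0.128 for Il1r1), without SAT 2 months replicate 1 (0.253 and 0.151) and without SAT 24 months replicate 2 (0.0593 and 0.0530). That of Il1r1 was also lost without SAT 2 months replicate 2 (0.105) and when clustering had no batch correction (0.0643).

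B cell markers moved in these nuclei too. A list of 9 B cell genes summed to 493 and 677 CPM in sub-cluster 0 at 2 months against 142 and 201 CPM in SAT at 24 months, and the lymph node list to 170 and 192 against 28.0 and 97.6 CPM. Chst4 and Fam3d of that list were at 0 UMIs in every library there. The part of this background in the change of Scart2 was not tested. B cell nuclei themselves held 9.56 CPM of Scart2.

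In the T cell nuclei outside sub-cluster 0, 5 of 8 members rose with age, against 9.55% of 9766 genes called. Scart2 was at 50.04 and 39.3 CPM at 2 months against 287 and 256 CPM at 24 months, a log2 fold change of 2.65 ± 0.26 (adjusted p = 3.98e-13). Il23r was at 34.8 and 18.4 against 228 and 247 CPM (3.19 ± 0.30, adjusted p = 1.17e-13), and Il18r1 at 443 and 331 against 1763 and 1831 CPM (2.21 ± 0.21, adjusted p = 2.40e-13). The ages were well apart for these 3 genes. Trgc1 was at 14.1 and 7.09 against 48.4 and 56.9 CPM (2.32 ± 0.64, edgeR, adjusted p = 0.00986). Il1r1 was at 14.1 and 16.3 against 41.5 and 114 CPM (2.06 ± 0.53, edgeR, adjusted p = 0.00462). These sets held 195 and 75 nuclei at 24 months, with 14 and 6 UMIs of Trgc1 and 12 and 12 of Il1r1, so both effects rest on few counts.

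Scart1 (1.01, adjusted p = 0.192), Trdc (0.56) and Blk (0.42) did not pass the test in these nuclei. Without SAT 2 months replicate 2 no member passed it, with 2 genes called in all. The call of Trgc1 was also lost with DESeq2 (adjusted p = 0.0831), which called 4 members, with the replicate block (0.109), without SAT 2 months replicate 1 (0.489) and without SAT 24 months replicate 1 (0.0881), and Trgc1 was not tested with no batch correction. That of Il1r1 was also lost without SAT 2 months replicate 1 (0.235), without SAT 24 months replicate 2 (0.125) and with no batch correction (0.190). The members that passed were not spread evenly: in SAT 24 months replicate 1, sub-cluster 6 held 58 of the 83 UMIs of Scart2 and 38 of the 66 UMIs of Il23r outside sub-cluster 0. In replicate 2 it held 25 of 27 and 9 of 26.

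Sub-cluster 6 had Itgb1, Il9r and Trat1 among its leading genes, with Trac at 763 CPM. Its Scart2 level was 33.4 and 232 CPM in SAT at 2 months, 506 and 625 CPM in SAT at 24 months and 0 CPM in VAT replicate 2, with 24 to 148 nuclei a library. Il23r was at 44.5 and 18.2 CPM, then 332 and 225 CPM, then 33.1 CPM. Il18r1 was at 1184 and 688 CPM, then 2531 and 2274 CPM, then 1076 CPM. Of the T cell nuclei outside sub-cluster 0, it made up 9.27% and 7.02% in SAT at 2 months and 35.9% and 32.0% in SAT at 24 months. The CD8 T-like sub-clusters 1 and 2 together made up 36.2% and 38.7% against 16.4% and 24.0%. The makeup of the other T cells thus differed between the ages, and its part in their age effects and in the difference from sub-cluster 0 was not tested.

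The age effect differed between sub-cluster 0 and the other T cells for 4 of 8 members, tested as an interaction in 1 edgeR fit with library as a block, in which 1.25% of 9051 genes were called. The effect in sub-cluster 0 was lower by 3.78 ± 0.29 on the log2 scale for Scart2 (adjusted p = 2.25e-09), by 2.66 ± 0.33 for Il23r (adjusted p = 6.18e-06), by 2.09 ± 0.46 for Trgc1 (adjusted p = 0.0120) and by 2.07 ± 0.21 for Il18r1 (adjusted p = 3.01e-07). For Scart2 the effects had opposite signs. The difference for Trgc1 rests on 14 and 6 UMIs in the other T cells of SAT at 24 months. Il1r1 differed by -0.93 (adjusted p = 0.496), and Scart1, Trdc and Blk by -0.42 to -0.28. With either 2-month library left out, 0 genes were called by edgeR, with 388 and 390 at an unadjusted p under 0.05.

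**Figure D5:**
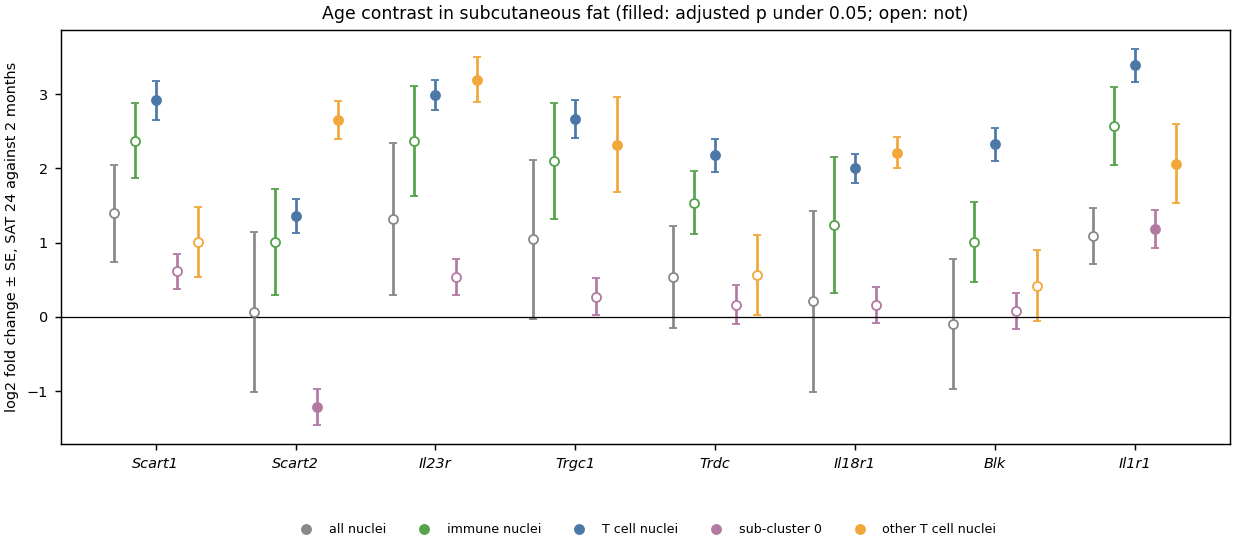
Log2 fold change of each member in SAT from 2 to 24 months with its SE, from edgeR fits on all nuclei, immune nuclei, T cell nuclei, sub-cluster 0 and other T cell nuclei. Filled points have an adjusted p under 0.05: all 8 in T cell nuclei, 5 in other T cells, and Scart2 (-1.22) and Il1r1 (1.18) in sub-cluster 0.

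Summed over all kept nuclei, no member passed the test for age in SAT. edgeR called 0 of 21729 genes (0%), with 1794 at an unadjusted p under 0.05, and DESeq2 called 292 genes but none of the members. Il1r1 was at 62.7 and 63.7 CPM at 2 months against 146 and 92.5 CPM at 24 months (1.09 ± 0.38, adjusted p = 0.601 in edgeR), and it was the 1 member under 0.05 unadjusted. Scart1 was at 74.8 and 43.3 against 229 and 55.3 CPM (1.39 ± 0.65), and Il23r at 39.1 and 50.3 against 174 and 31.8 CPM (1.32 ± 1.02). The older libraries differed so much from each other that most members overlapped the young ones: Scart2 was at 71.3 and 62.1 against 116 and 13.9 CPM, and Blk at 93.9 and 78.5 against 120 and 28.1 CPM. Without SAT 24 months replicate 1 the fold change of Scart2 moved from 0.06 to -1.92 and that of Il18r1 from 0.21 to -0.90.

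Among immune nuclei, edgeR again called 0 of 14513 genes (0%) for age, with 1254 at an unadjusted p under 0.05. Scart1 was at 137 and 59.0 CPM at 2 months against 601 and 317 CPM at 24 months (2.37 by log2 fold change). Il1r1 was at 29.6 and 29.9 against 190 and 134 CPM (2.57 ± 0.53, adjusted p = 0.524). Of the 8 members, 5 had an unadjusted p under 0.05. DESeq2 called 80 genes, Il1r1 and Scart1 among them, and no other member.

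For VAT against SAT at 24 months over all nuclei, edgeR called 3 genes (0.0138%) and 0 of 8 members, with 5 members at an unadjusted p under 0.05. Fold changes of all 8 were below 0, with a median of -2.69. Scart1 was at 229 and 55.3 CPM in SAT against 7.001 and 16.1 CPM in VAT (-3.57 ± 0.71, adjusted p = 0.303), Scart2 at 116 and 13.9 against 0.467 and 5.88 CPM (-4.36), and Trdc at 46.2 and 9.23 against 1.87 and 4.21 CPM (-3.11). DESeq2 called these 3 among 520 of 21729 genes. Il1r1, which FAPs and adipocytes also express, was at 146 and 92.5 against 91.6 and 65.7 CPM (-0.48). Without SAT 24 months replicate 1 the fold changes of Scart1, Scart2 and Trdc were -2.44, -2.39 and -1.77.

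Among immune nuclei the depot contrast had 0 genes called by edgeR (0%), with 1275 at an unadjusted p under 0.05, 6 of the 8 members among them. Fold changes ran from -1.45 for Il1r1 to -3.49 for Scart2. Scart2 was at 312 and 88.0 CPM in SAT against 5.39 and 29.3 CPM in VAT, and its fold change was -2.33 without SAT 24 months replicate 1, -5.14 without VAT replicate 2 and within this range without either of the other libraries. DESeq2 called 184 genes and 3 members. VAT replicate 1 held few T cells, and without VAT replicate 2 edgeR called 2 members in either depot contrast, among 374 of 22978 genes over all nuclei (Trgc1 and Il18r1) and 163 of 15475 among immune nuclei (Il18r1 and Il1r1).

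Other genes of the pathway were counted by list over the same fits, in which 15.5% of all genes were called in T cell nuclei, 9.55% in other T cells and 1.69% in sub-cluster 0. Of 24 further gamma-delta receptor genes, 4 were tested in T cell nuclei and all 4 rose with age, among them Trgc2 (2.34 ± 0.23), the close copy of Trgc1. Of the 10 alpha-beta receptor and CD3 genes, 8 fell, among them Cd8b1 (-3.25), Trac (-1.76) and Cd4 (-1.48), while Cd247 (0.11) and Cd3g (-0.54) did not pass the test. In sub-cluster 0 none of the 3 gamma-delta receptor genes tested passed it, and 1 of the 10 alpha-beta and CD3 genes fell, Trac by 1.43. DESeq2 called 1 lower gene in all there, so at most 1 of the falls of Trac, Il17rb and Cd27 in sub-cluster 0 kept its call.

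Among 14 type 17 transcription factor genes, 6 rose in T cell nuclei and 2 fell. Zbtb16, which encodes PLZF of innate-like T cells, rose by 2.83, Sox13 by 2.56 and Maf by 2.28. Sox4 fell by 1.79 and Irf4 by 1.54. In sub-cluster 0, 0 of 12 tested passed the test in edgeR, with 4 at an unadjusted p under 0.05. In other T cells 5 of 11 rose, among them Maf by 2.11, in a fit that called 2 genes in all without SAT 2 months replicate 2.

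Among effector cytokine genes, 1 of 6 tested rose in T cell nuclei, a share near that of all genes (15.5%); it was Csf2, which encodes GM-CSF, at 3.25. The receptor list held 8 tested genes, of which 3 rose: Il12rb1, the chain that pairs with IL-23R, by 2.04, Il18rap, the partner of IL-18R1, by 1.81, and Il7r by 0.65. Of 5 IL-17 receptor genes, Il17re rose by 2.76, Il17rc by 2.53 and Il17rb by 1.15, and Il17ra fell by 0.64. Il17rb fell by 1.60 within sub-cluster 0 and rose by 2.67 in other T cells, a difference of -4.23 (edgeR, adjusted p = 4.73e-05 for the interaction). Like those of the members, this interaction call was not kept with either 2-month library left out. DESeq2 called 1 lower gene in all in sub-cluster 0.

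Of 12 homing and residence genes, 6 rose in T cell nuclei, Itga1, Ccr2, Cxcr6, Ccr6, Cd44 and Itgae, by 1.43 to 2.75, and 5 fell, among them Ccr7 (-3.57), Cd27 (-1.99), S1pr1 (-1.61) and Cd69 (-1.56). Ccr7 guides cells into lymph nodes, whereas Cd69 is known as a marker of activation and residence. In sub-cluster 0, Cd27 fell by 2.31 in edgeR, whereas DESeq2 called 1 lower gene there in all. Of 10 Src family kinase and adaptor genes, Yes1 rose by 2.39 and 4 fell in T cell nuclei. Both tested relatives of the Scart genes, Cd5 and Cd6, fell, by 1.70 and 1.44. Of the lymph node list 5 of 7 tested fell.

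The classes with the highest level of each ligand transcript were not T cells. Il12b, a chain of IL-23, was highest in mature dendritic nuclei at 30.7 CPM. Il23a was at 4.12 CPM or less in every class. Its highest class, mesothelial nuclei, thus rests on few UMIs over 1513 nuclei and does not mark a source. Il1b was highest in conventional dendritic nuclei at 30.1 CPM, and Il1a and Il18 in macrophage nuclei at 23.5 and 123 CPM. Il1r2, the decoy receptor of IL-1, was highest in FAPs at 52.2 CPM.

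The pattern most like that of the summed members, over 26 cell classes and sub-clusters with at least 30 nuclei, was that of Cxcr6 (Pearson r = 0.939 on log2(CPM + 5)), a chemokine receptor of tissue-resident lymphocytes. Il12rb1 (0.904), Il18rap (0.901) and Trgc2 (0.901) followed. Aqp3, Gm15208, Podnl1, Cd101, Rbl2 and Clint1 completed the first 10, at 0.883 to 0.901. The points share libraries and some share nuclei, so these values are descriptions. Of the members, Scart2 and Il18r1 each had r = 0.933 with the sum and Il1r1 0.383.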

How the data were processed

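Nuclei were isolated from SAT and VAT and made into libraries with a Singleron GEXSCOPE single-nucleus kit, sequenced on Illumina and counted by the authors with Celescope on GRCm39. A label field naming another droplet system was not used. The version of Celescope and its annotation are not given in the sources used here. The deposited values are raw UMI counts per gene and barcode, with no normalization.

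Barcodes with more than 500 genes, more than 1000 UMIs and less than 15% mitochondrial UMIs were kept, as in the study. Nuclei were clustered on 1000 variable genes, 30 components and 20 neighbours with the library effect corrected by a soft-clustering method after Harmony, using the Leiden method (leidenalg 0.10.2, scanpy 1.11.5, Python 3.11.15) at a resolution of 2 for all nuclei and 1 for T cells, with the members left out of the variable genes. Clusters were named by marker lists. Scrublet's automatic call marked 0.052% to 0.562% of nuclei a library and so had not worked, and doublets were left in, with an alternative that removes the top-scoring 5%. The members and all lists were chosen with earlier results of these data known, and the naming rule for clusters was adjusted after the clusters had been seen.

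Counts were summed per library and set of nuclei (at least 20 nuclei) and tested with edgeR 4.0.16 (quasi-likelihood F test, TMM scaling, filterByExpr, R 4.3.3), two-sided, with Benjamini-Hochberg adjustment over all genes tested and a call at an adjusted p under 0.05. All libraries with enough nuclei entered 1 fit of the groups. DESeq2 1.42.0, library-size scaling, no low-count filter, a replicate block and leaving out each library were alternatives. The fits for sub-cluster 0, for other T cells and for their difference were added after the data had been seen. The script was tested on simulated data. CPM are per 1000000 UMIs of the summed nuclei, and shares have exact binomial and CPM exact Poisson 95% intervals, which cover counting error only. A share of 0 is given with the limit that 3 counts set. The genes named are the members, the genes of the lists and the 10 genes with the most similar pattern. Positions came from GENCODE M39 on GRCm39. Nuclei per library and their depth set the precision, least for VAT replicate 1. All libraries carry 1 date, so no batch could be compared. Some genes of the lists are not reported here.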

Additional observations from a re-analysis of the deposited data

Results flagged for a closer look

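The age effect in SAT differed between the type 17 gamma-delta T-like sub-cluster and the other T cell nuclei for 4 members, in an edgeR test of the difference itself with library as a block. The effect in the sub-cluster minus that in the other T cells was -3.78 for Scart2, -2.66 for Il23r, -2.09 for Trgc1 and -2.07 for Il18r1 on the log2 scale. With SAT 2 months replicate 1 or replicate 2 left out, 0 of the 4 differences passed the test.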

How the results depend on the processing

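In T cell nuclei all 8 members kept their direction and their call under every alternative, the T cell class by counted markers included. Values outside T cells were less stable. The number of members called for VAT against SAT over all nuclei, 0 by edgeR, was 3 with DESeq2, 7 with no low-count filter and 0 to 2 with 1 library left out. For immune nuclei it was 3, 8 and 0 to 2 for the depots, and 2 with DESeq2 and 6 with no low-count filter for age. In sub-cluster 0 it went from 2 to 0 with DESeq2, to 1 with no batch correction and to 0 to 2 with 1 library left out. In other T cells it went from 5 to 3 with no batch correction and to 0 to 4 with 1 library left out, and for the difference from 4 to 0 to 4. The cause was not tested.

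Over all genes, DESeq2 and the fit with no low-count filter called 292 and 953 for age (0 by edgeR with the filter) and 520 and 1034 for the depots (3) over all nuclei. Among immune nuclei they called 80 and 705 for age and 184 and 521 for the depots (0 by edgeR with the filter in both). DESeq2 called 788 genes in T cell nuclei (edgeR 1903), 10 in sub-cluster 0 (126) and 321 in other T cells (933). With 1 library left out the counts were 673 to 2390, 25 to 110 and 2 to 915. No batch correction gave 63 and the 4 libraries alone 59 in sub-cluster 0. The T cell class by counted markers gave 1259 in T cell nuclei. For the depots, 1 library left out gave 0 to 952 over all nuclei and 0 to 163 among immune nuclei, and for the difference 0 to 144 (113 with all). All deposited barcodes gave 22 for the depots. Library-size scaling moved the median age effect of all genes from 0.02 to -0.17 over all nuclei and from 0.03 to -0.10 among immune nuclei.

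The age effect of Scart2 over all nuclei, 0.06, was -0.043 with library-size scaling, -0.013 with no low-count filter, -0.15 with all deposited barcodes and -1.92 to 0.83 with 1 library left out. With 1 library left out, signs over all nuclei also turned for Il23r (-0.14 to 1.99), Trdc (-0.81 to 1.20), Il18r1 (-0.90 to 0.79) and Blk (-1.27 to 0.51), and among immune nuclei for Scart2 (-0.19 to 1.64). In sub-cluster 0 they turned for Trgc1 (-0.16 to 0.82), Trdc (-0.27 to 0.69) and Blk (-0.21 to 0.41), and with no batch correction these were -0.041, -0.15 and -0.22. In other T cells Scart1 ran from -1.95 to 1.86, with -0.30 for no batch correction. In the difference Scart1 ran from -0.97 to 2.48 and Trdc from -0.95 to 0.27.

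Same-numbered libraries did not deviate together (correlations over genes from -0.481 to 0.182), so the numbers were not taken as pairs. Only SAT and VAT at 24 months could share mice, and their correlation was -0.476 over all nuclei and -0.481 among immune nuclei. With 2 libraries a group, a negative value means that opposite-numbered libraries deviated together. A pairing in that order was not tested, so these values do not show that the depot libraries are unpaired. The replicate block gave Scart2 -0.012 over all nuclei, called 8 members in T cell nuclei (1592 genes), 2 in sub-cluster 0 and 4 in other T cells (536 genes), and called 0 over all and immune nuclei. A fit with 1 library left in a group assumes that it varies like the others. The share of sub-cluster 0 in T cells differed between ages by 51.6 to 63.3 percentage points, and that of nuclei with members by 43.3 to 58.6. At this depth a nucleus without a UMI of Il17a need not lack its transcript.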
